A study of Saccharomyces cerevisiae with 18 samples.

Results

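The RNA of budding yeast that lacked either PIH1 or TAH1 was compared with the RNA of strains that kept both genes. The comparison used all 18 libraries of the series: the 12 libraries of deletion strains were set against the 6 libraries of wild type strains, with the tagged protein as a block. It covered 5825 genes that had a mean of at least 10 normalized counts over the 18 libraries, out of 7126 features in the table. A gene is called shared below when it passed the pooled test and its mean moved the same way in all 4 deletion groups.

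All strains were BY4741, a laboratory strain of Saccharomyces cerevisiae, and either Rvb1 or Rvb2 was tagged in every one of them, the wild types included. There were 6 groups of 3 biological replicates: Rvb1-tagged wild type, Rvb1-tagged PIH1 deletion, Rvb1-tagged TAH1 deletion, and the same 3 genotypes with tagged Rvb2. Cells were grown in 5 ml of YPD, a rich glucose medium, at 30 °C and harvested when the OD600 had reached 1.2–1.5, and poly(A)+ RNA was sequenced. The labels name neither an untagged strain nor a number of independently made strains per genotype, so an effect of a deletion cannot be told apart from that of one strain isolate. The title of 1 library, Rvb2-tagged wild type replicate 1, was followed although its source label names Rvb1.

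R2TP is a chaperone complex of the paired AAA+ ATPases Rvb1 and Rvb2 with the adaptors Pih1 and Tah1. Tah1 binds the chaperone Hsp90, and Pih1 joins Tah1 to the ATPase ring. In yeast the complex is known for the assembly of box C/D small nucleolar ribonucleoproteins, which guide the processing and methylation of ribosomal RNA, and its relatives act on RNA polymerase II and on kinases of the PIKK family. Rvb1 and Rvb2 also belong to the INO80 and SWR1 chromatin remodellers.

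Libraries held between 4829249 and 5412654 normalized counts in all. LEU2, MET17 and URA3, which are deleted in BY4741, were listed at 0 in all 18 libraries. HIS3, only partly deleted in that strain, ran from 425 to 846 normalized counts and was at 0 in no library. The alpha-cell receptor gene STE3 lay between 1 and 36 normalized counts, and the alpha-factor gene MF(ALPHA)1 between 0 and 11. The alpha-cell genes SAG1, from 256 to 492, and MF(ALPHA)2, from 34 to 73, were at 0 in no library. Rvb1-tagged wild type replicate 2 stood apart: its distance from the other libraries of its group, the root mean square difference over genes, was 0.404 on the log2 scale, against 0.155 to 0.306 in the other 17. In the Rvb2-tagged TAH1 deletion the 450 tested genes of chromosome XVI had a median log2 change of 0.97, against 0.02, 0.01 and 0.05 in the Rvb1-tagged PIH1, the Rvb1-tagged TAH1 and the Rvb2-tagged PIH1 deletion.

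Stretches of promoters are shown for 3 groups of genes that the results turn on, because each group is known to be read by transcription factors with a defined core motif. They are 90 bases long, come from the RefSeq R64 genome (sacCer3) and are written 5′ to 3′ on the strand of the gene, with the motif in capitals. The first 3 belong to drug resistance genes, and their capitals mark TCCGNGGA, the element bound by Pdr1 and Pdr3. This motif was found in the 600 bases before the start codon of 3.53% of 5559 tested genes, on either strand, and of 17 of 21 drug resistance genes, a list that is made of known targets. Among the shared falls the share was 4.46% and among the shared rises 3.4%, both near that of all genes. PDR5 held 4 copies in that window, PDR15 and CIS1 held 1 each, and RSB1, also searched, held 0. Only promoters with a match are shown.
PDR5, chrXV:619486-619575, plus strand: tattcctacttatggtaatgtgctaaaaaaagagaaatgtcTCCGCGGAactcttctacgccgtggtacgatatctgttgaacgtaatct
PDR15, chrIV:1278790-1278879, plus strand: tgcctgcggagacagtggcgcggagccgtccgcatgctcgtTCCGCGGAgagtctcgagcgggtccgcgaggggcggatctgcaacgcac
CIS1, chrXII:822869-822958, minus strand: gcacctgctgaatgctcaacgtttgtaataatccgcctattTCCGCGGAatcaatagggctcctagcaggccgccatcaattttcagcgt

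The next 3 belong to iron genes. Their capitals mark TGCACCC, or its complement GGGTGCA, the core site of Aft1 and Aft2, the activators of the iron regulon. It was found before 2.73% of all genes and before 21 of 28 iron genes, again a list of known targets. Among the shared falls the share was 3.96% and among the shared rises 1.46%. FIT2 held 4 copies, and FIT3 and TIS11 held 2 each.
FIT2, chrXV:1059341-1059430, plus strand: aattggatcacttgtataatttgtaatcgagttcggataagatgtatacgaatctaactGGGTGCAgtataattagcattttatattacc
FIT3, chrXV:1061191-1061280, minus strand: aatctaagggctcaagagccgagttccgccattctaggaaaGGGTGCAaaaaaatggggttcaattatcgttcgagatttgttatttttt
TIS11, chrXII:416783-416872, minus strand: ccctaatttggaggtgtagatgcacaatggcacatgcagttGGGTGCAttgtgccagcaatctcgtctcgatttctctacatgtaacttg

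The last 2 belong to genes that act in ribosome assembly or on RNA. Their capitals mark GCGATGAG, or its complement CTCATCGC, known as the PAC element of ribosome biogenesis genes. It was found before 5.49% of all genes, 16.8% of the shared rises (173 of 1030 with a promoter) and 2.35% of the shared falls. AAAATTT, the other common element of such genes, was found before 38.73% of all genes and 57.18% of the shared rises. RPA190 and MRD1, also searched, held 0 copies of GCGATGAG. A match describes the letters of a promoter and is not evidence of binding.
SDA1, chrVII:982169-982258, minus strand: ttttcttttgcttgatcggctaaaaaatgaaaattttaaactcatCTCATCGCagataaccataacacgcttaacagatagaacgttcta
DBP2, chrXIV:413443-413532, plus strand: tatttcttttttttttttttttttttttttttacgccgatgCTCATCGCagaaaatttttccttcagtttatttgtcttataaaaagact

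The deleted genes were low where the labels say so. PIH1 had 3, 6 and 9 normalized counts in the Rvb1-tagged and 3, 1 and 5 in the Rvb2-tagged PIH1 deletion, against 125 to 170 in the other 12 libraries. TAH1 had 2, 2 and 3 in the Rvb1-tagged TAH1 deletion and 0 in all 3 libraries of the Rvb2-tagged one, against 138 to 234 elsewhere. Each gene was low in 6 of the 12 deletion libraries, and neither passed the pooled test (limma adjusted p = 0.0761 and 0.0714).

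The RNAs of the ATPases moved in opposite directions with the tag. RVB1 stood at 925, 1031 and 969 normalized counts in the Rvb1-tagged wild type, at 705, 676 and 591 in the PIH1 deletion and at 508, 491 and 504 in the TAH1 deletion of that tag. With tagged Rvb2 the wild types had 762, 960 and 986, the PIH1 deletion 1618, 1671 and 1652, and the TAH1 deletion 1702, 1608 and 1608. RVB1 was thus lower in both deletions that tag Rvb1 and higher in both that tag Rvb2, and its pooled log2 change was 0.05 ± 0.21 (SE, limma adjusted p = 0.857). RVB2, which is on chromosome XVI, did the reverse with tagged Rvb2: 815, 952 and 880 in the wild type, 302, 307 and 325 in the PIH1 deletion and 513, 550 and 499 in the TAH1 deletion. With tagged Rvb1 it stayed between 877 and 1111 in all 9 libraries. The difference of the deletion effect between tags was 1.64 ± 0.10 for RVB1 and −1.24 ± 0.09 for RVB2 (log2 ± SE, limma adjusted p = 7.59e-09 and 2.61e-08).

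Over all genes, 1180 (20.3%) were higher and 964 (16.5%) lower in the deletions by the pooled test at an adjusted p of 0.05. Of these 2144 genes, 1882 were shared: 1065 rises (18.3% of the genes tested) and 817 falls (14.0%). The other 262 had a mean that moved the other way in at least 1 deletion. Without any test, 1398 genes were higher and 1104 lower in all 4 deletion groups, 42.95% of the genes tested. The deletions of a tag share their 3 wild type libraries, so those signs are not independent of each other. Counts are shares of a library, so a lower level in every cell and a lower share of cells with the RNA cannot be told apart.

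Most shared changes were small, and they were not of equal size in the 4 deletions. The median log2 change of the shared rises was 0.32 in the Rvb1-tagged PIH1 deletion, 0.22 in the Rvb1-tagged TAH1 deletion, 0.69 in the Rvb2-tagged PIH1 deletion and 0.35 in the Rvb2-tagged TAH1 deletion. For the shared falls the same medians were −0.34, −0.19, −0.75 and −0.39. Only 39 shared rises and 53 shared falls changed by at least 0.5 in every deletion, and only 2 and 11 by at least 1. When each deletion was tested on its own, 88 genes (1.51%) rose and 99 (1.7%) fell in each of the 4. All 12 deletion libraries lay above all 6 wild types for 56 genes (0.961%) and below them for 155 (2.66%).

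The pooled test treats the 12 deletion libraries as replicates of 1 state. With the 6 group means as the only observations (3 residual degrees of freedom), limma called 0 genes, while 572 had an unadjusted p under 0.05, against 2794 in the pooled fit. The smallest adjusted p of that fit was 0.0918, for PDR5. The spread in the pooled fit takes in differences between the deletion strains. Its calls still rest on counting the libraries of a strain as independent.

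**Figure D1:**
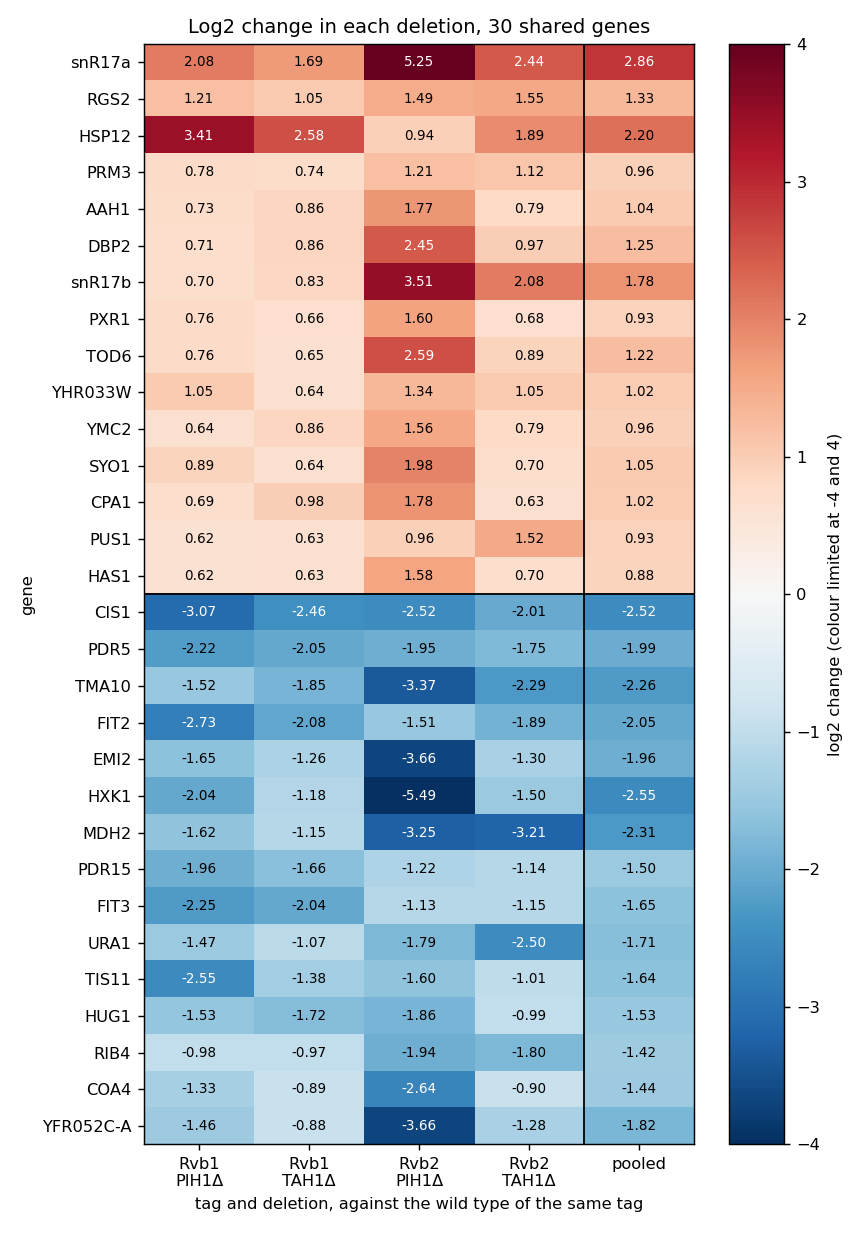
Log2 change in each of the 4 deletions against the wild type of the same tag, and in the pooled fit, for the 15 shared rises (above the line) and 15 shared falls (below) whose smallest change over the 4 deletions was largest. Rows are genes and colour runs from blue (lower) to red (higher). All 4 changes of a gene have 1 sign by the rule that chose it, and the Rvb2-tagged PIH1 deletion has the largest rise for snR17a (5.25) and the largest fall for HXK1 (−5.49).

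Pleiotropic drug resistance genes encode membrane pumps and lipid proteins under Pdr1 and Pdr3. Of 21 tested genes of this list 9 fell, all 9 shared, and 2 rose, against 16.5% and 20.3% of all genes. In 7 of the 9, all 12 deletion libraries lay below all 6 wild types. Over all genes 14.0% were shared falls and 2.66% were below the wild types without overlap. The median pooled log2 change of the list was −0.23, against 0.01 for all genes.

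PDR5, the main drug efflux pump of yeast, had 12547, 14151 and 12976 normalized counts in the Rvb1-tagged wild type and 9509, 11762 and 12253 in the Rvb2-tagged one. It had 2934, 2782 and 2762 in the Rvb1-tagged PIH1 deletion, 3254, 3114 and 3231 in the Rvb1-tagged TAH1 deletion, 2945, 2940 and 2764 in the Rvb2-tagged PIH1 deletion and 3383, 3283 and 3233 in the Rvb2-tagged TAH1 deletion. The highest deletion library was far below the lowest wild type, and the 12 deletion values lay within a narrow band. PDR5 changed by −1.99 ± 0.07 in the pooled fit (SE, limma adjusted p = 2.07e-12).

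PDR15, a close relative of the PDR5 pump, ran from 560 to 947 in the wild types and from 191 to 407 in the deletions. Its pooled log2 change was −1.50 ± 0.13 (limma adjusted p = 7.94e-07). CIS1, a Pdr1 target named for citrinin sensitivity, had 84, 78, 80, 66, 66 and 59 normalized counts in the 6 wild types and 6 to 20 in the deletions. It changed by −2.52 ± 0.20 (SE, limma adjusted p = 4.07e-07).

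Smaller falls were measured for RSB1, a lipid translocase gene (−0.84 ± 0.09, limma adjusted p = 9.72e-06), LAF1 (−0.68), PDR16, a lipid transfer protein gene (−0.47), ICT1 (−0.44), the pump gene YOR1 (−0.42) and YGR035C (−0.76). The members that rose were PDR10 (0.24) and the pump gene FLR1 (0.28). Summed over the list, the wild types had 19766 to 25995 normalized counts and the deletions 11585 to 13687. The Rvb1-tagged wild type library that stood apart had 25995, the highest value of the 18. With only the Rvb1-tagged libraries 8 of the list fell, and with only the Rvb2-tagged libraries 9 fell. Over all 5825 genes 96 and 914 fell in those settings.

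**Figure D2:**
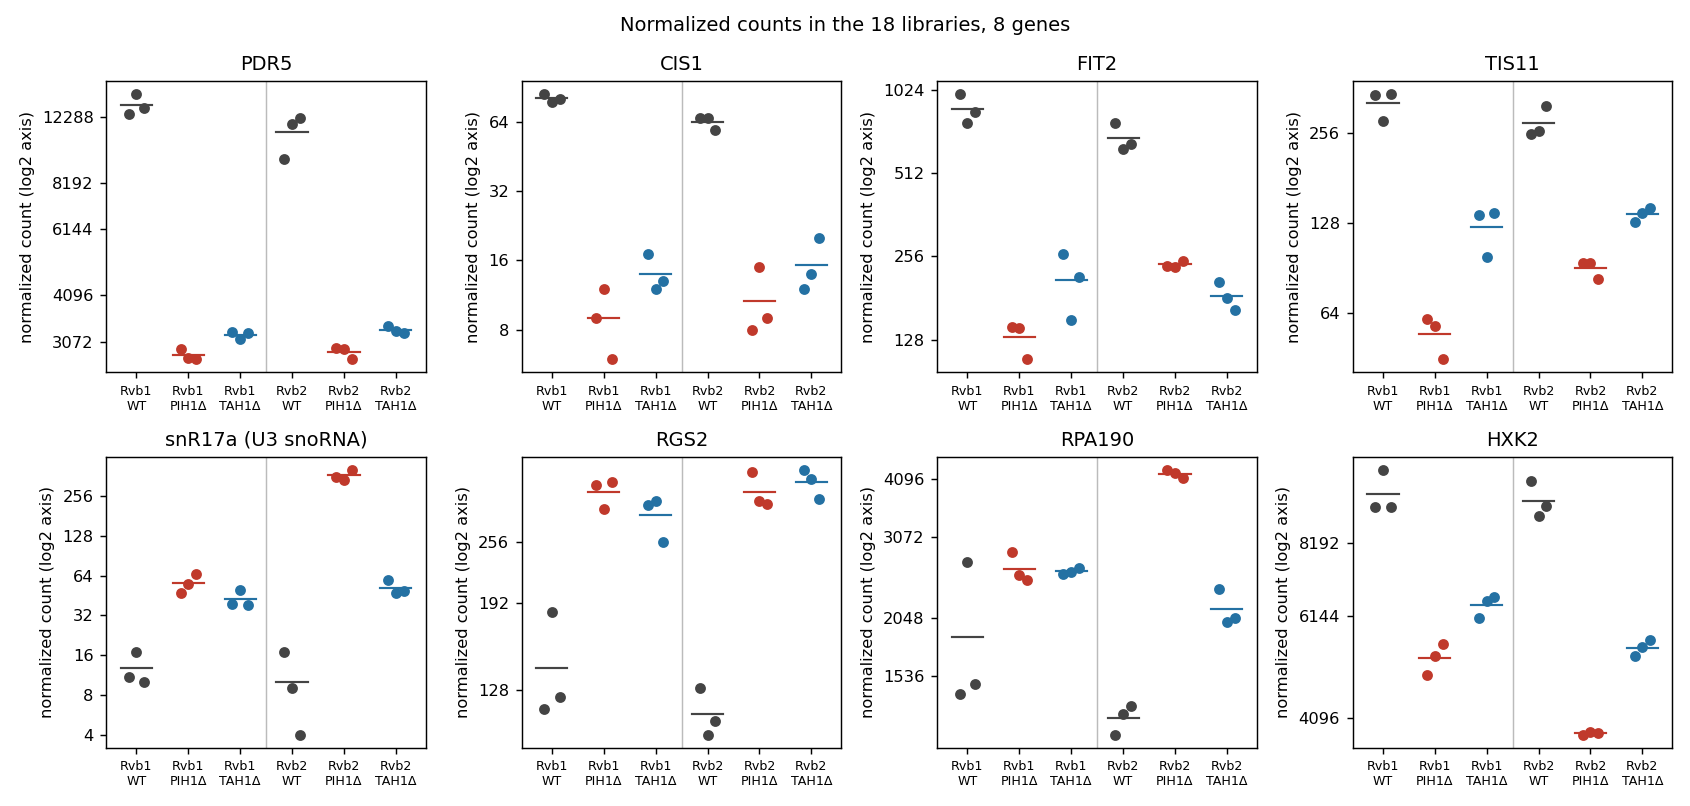
Normalized counts of 8 genes in the 18 libraries (log2 axis), by tag and genotype (WT, wild type). Points are libraries and lines are group means, n = 3. PDR5, CIS1, FIT2 and TIS11 are lower, and snR17a and RGS2 higher, in all 12 deletion libraries than in any wild type, while Rvb1-tagged wild type replicate 2 lies among the deletions for RPA190.

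Iron regulon genes, which serve iron uptake and its sparing under Aft1 and Aft2, fell in 13 of 28 tested cases, against 16.5% of all genes, and 1 rose. Of the 13 falls 10 were shared and 6 had no overlap between deletion and wild type libraries. Over all genes 14.0% were shared falls and 2.66% were below the wild types without overlap. The median pooled log2 change of the list was −0.20.

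FIT2, a cell wall mannoprotein that retains siderophore iron, had 986, 778 and 849 normalized counts in the Rvb1-tagged wild type and 779, 624 and 651 in the Rvb2-tagged one. The deletions had 142, 141 and 109 (Rvb1-tagged PIH1), 261, 151 and 216 (Rvb1-tagged TAH1), 237, 234 and 246 (Rvb2-tagged PIH1) and 206, 181 and 164 (Rvb2-tagged TAH1). No deletion library reached a wild type, and FIT2 changed by −2.05 ± 0.17 (SE, limma adjusted p = 4.12e-07).

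Its relative FIT3 ran from 1088 to 1780 in the wild types and from 337 to 571 in the deletions (−1.65 ± 0.13, limma adjusted p = 4.12e-07). TIS11, also known as CTH2, which targets mRNAs of iron-using proteins for decay when iron is low, ran from 255 to 346 and from 45 to 144 (−1.64 ± 0.22, limma adjusted p = 0.000127). Its effect was larger without PIH1 than without TAH1, by −0.88 on the log2 scale.

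The siderophore transporter ENB1 (−0.91 ± 0.09), the copper-transporting ATPase CCC2 that loads the iron oxidase (−0.82 ± 0.09), and the transporters ARN2 (−0.75), SIT1 (−0.67) and ARN1 (−0.62) fell too. FRE1, a metal reductase, fell by 0.52, and FET3, the iron oxidase, by 0.33. VHT1, a biotin transporter, rose by 0.27. The list was not uniform among deletions: its median change was −0.52 and −0.28 in the Rvb1-tagged PIH1 and TAH1 deletions, and 0.05 and −0.11 in the Rvb2-tagged ones. With only the Rvb1-tagged libraries 11 genes fell and 0 rose, beside 96 and 40 of the 5825 genes tested. With only the Rvb2-tagged libraries 6 fell and 3 rose, beside 914 and 1002 of the 5825.

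Genes of ribosome assembly rose. All 40 tested genes of the small subunit processome list and all 42 of the large subunit assembly list were shared rises, against 18.3% of all genes. So were all 9 RNA polymerase I subunits and 11 of 13 genes for small nucleolar ribonucleoproteins and their assembly factors. The median pooled log2 changes were 0.69, 0.70, 0.62 and 0.45.

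In the small subunit processome, which cleaves the precursor of the small subunit's RNA, the changes ran from 0.26 (UTP22) to 1.02 (DHR2, a helicase), with 1.01 for NAN1 and for NOC4, both on chromosome XVI, whose genes had a median change of 0.97 in the Rvb2-tagged TAH1 deletion. In the large subunit list they ran from 0.49 (SPB4) to 1.05 for REA1, the AAA+ ATPase that strips assembly factors, with 1.03 for SDA1 and 0.98 for NOP4, which is on chromosome XVI. HAS1, a helicase of both pathways, changed by 0.88 ± 0.18 (limma adjusted p = 0.00195). Each of these lists was higher in all 4 deletions, with medians of 0.41 to 0.56 in 3 of them and of 1.31 (small subunit) and 1.35 (large subunit) in the Rvb2-tagged PIH1 deletion.

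RPA190, the largest subunit of RNA polymerase I, had 1403, 2712 and 1477 normalized counts in the Rvb1-tagged wild type and 1149, 1272 and 1321 in the Rvb2-tagged one. Its deletion libraries had 2856, 2544 and 2475 (Rvb1-tagged PIH1), 2557, 2584 and 2630 (Rvb1-tagged TAH1), 4288, 4219 and 4122 (Rvb2-tagged PIH1) and 2370, 2016 and 2048 (Rvb2-tagged TAH1). Replicate 2 of the Rvb1-tagged wild type was as high as the deletions, and the other 5 wild types were lower than all 12. In the pooled fit RPA190 changed by 0.91 ± 0.19 (SE, limma adjusted p = 0.00256). RPA135, the other large subunit, changed by 1.18, and it lies on chromosome XVI (median 0.97 in the Rvb2-tagged TAH1 deletion), as does RSA1, an assembly factor of box C/D particles that changed by 0.91.

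The same library moved with the whole group. Its summed level of the small subunit list was 45768 normalized counts, against 26969 and 27246 in its group, 24313 to 24908 in the Rvb2-tagged wild type and 35652 to 62369 in the deletions. None of the 40 or of the 42 genes was free of overlap between deletion and wild type libraries. Over all genes only 0.961% lay above the wild types without overlap. With only the Rvb1-tagged libraries limma called 0 of the 40, 42, 9 and 13 genes of the 4 lists, and 35, 39, 9 and 6 were higher at an unadjusted p under 0.05. After that wild type library was also left out, a choice made after its values were seen, 39, 42, 9 and 12 passed, beside 712 of all genes. With only the Rvb2-tagged libraries 38, 39, 8 and 11 passed, beside 1002 of all genes. What set that library apart was not tested.

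**Figure D3:**
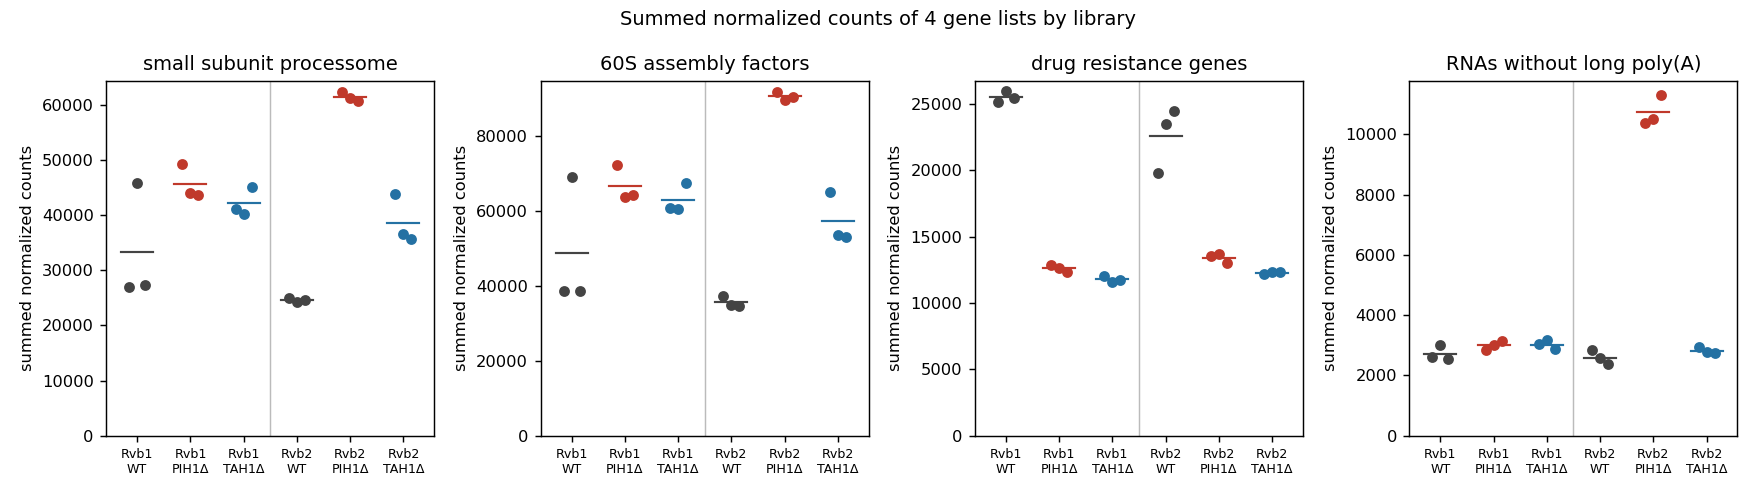
Summed normalized counts of 4 gene lists in each library, by tag and genotype (WT, wild type); points are libraries and lines are group means, n = 3. Rvb1-tagged wild type replicate 2 has a deletion-like sum for ribosome assembly (45768 for the small subunit list) and the highest sum for drug resistance genes (25995), and the Rvb2-tagged PIH1 deletion has the highest sum of RNAs without a long poly(A) tail (10372 to 11327).

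Both copies of the U3 small nucleolar RNA, the box C/D RNA at the core of the small subunit processome, rose. Their last 120 bases are shown because the copies are alike there and reads could be split between them: 101 of 115 aligned positions were identical. Capitals mark CTGA, the box D near the end. The sequences are from RefSeq R64.
snR17a, chrXV:780477-780596, plus strand: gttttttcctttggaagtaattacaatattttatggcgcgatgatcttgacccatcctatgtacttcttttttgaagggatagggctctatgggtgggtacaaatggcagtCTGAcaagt
snR17b, chrXVI:281056-281175, minus strand: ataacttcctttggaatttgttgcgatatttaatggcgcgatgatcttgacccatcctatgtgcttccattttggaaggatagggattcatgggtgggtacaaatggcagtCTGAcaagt

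snR17a had 11, 17 and 10 normalized counts in the Rvb1-tagged wild type and 17, 9 and 4 in the Rvb2-tagged one. The deletions had 47, 55 and 66 (Rvb1-tagged PIH1), 39, 50 and 38 (Rvb1-tagged TAH1), 357, 340 and 404 (Rvb2-tagged PIH1) and 59, 47 and 49 (Rvb2-tagged TAH1). Every deletion library was above every wild type, with the Rvb2-tagged PIH1 deletion highest. Pooled, snR17a changed by 2.86 ± 0.51 (SE, limma adjusted p = 0.000897), the largest among the shared rises named here.

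snR17b ran from 5 to 23 in the wild types and from 27 to 130 in the deletions (1.78 ± 0.36, limma adjusted p = 0.0019). It lies on chromosome XVI. The annotation places the dubious gene IRC13 over snR17a, so reads of the locus could be assigned to either.

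U3 has no long poly(A) tail, and poly(A)+ RNA was sequenced, so these counts are the part of U3 that passed oligo(dT) selection. Of 52 tested RNAs without a long poly(A) tail, 14 rose, against 20.3% of all genes, and 1 fell. Without Rvb2-tagged wild type replicate 3 the rises numbered 7, and without Rvb2-tagged TAH1 deletion replicate 2 they numbered 19. Their summed level was 10372 to 11327 in the Rvb2-tagged PIH1 deletion and 2373 to 3176 in the other 15 libraries, and their median change was 1.74 in that deletion and 0.15 to 0.19 in the other 3. The part of selection in the U3 result was not tested. Without the Rvb2-tagged PIH1 deletion, 10 of the 52 rose, which is near the 20.3% of all genes in the pooled fit, and both U3 copies still passed.

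Other genes of ribosome and RNA work were among the 15 named rises. DBP2, an RNA helicase, changed by 1.25, PXR1, a protein of ribosomal RNA processing, by 0.93, SYO1, which carries ribosomal proteins into the nucleus, by 1.05, and PUS1, a pseudouridine synthase of tRNA on chromosome XVI, by 0.93. TOD6, a repressor that binds the PAC element, changed by 1.22 and had 266 to 849 normalized counts in the wild types and 458 to 1737 in the deletions. For DBP2, PXR1, SYO1 and TOD6 the highest wild type value was that of Rvb1-tagged replicate 2.

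Glycolysis and fermentation genes fell. Of 19 tested genes 14 were lower, 13 of them shared and 5 without overlap, and 0 were higher by limma, with 0 at an unadjusted p under 0.05. Over all genes 16.5% were lower, 14.0% were shared falls and 2.66% were below the wild types without overlap. The median pooled log2 change was −0.45, and it was −0.50 and −0.16 in the Rvb1-tagged PIH1 and TAH1 deletions and −0.88 and −0.41 in the Rvb2-tagged ones. With only the Rvb1-tagged libraries 2 genes fell, and 5 when the wild type library that stood apart was also left out. Over all 5825 genes 96 and 520 fell in those settings.

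HXK2, the main hexokinase on glucose, had 9457, 10965 and 9474 normalized counts in the Rvb1-tagged and 10481, 9122 and 9493 in the Rvb2-tagged wild type. It had 4857, 5239 and 5502 in the Rvb1-tagged PIH1 deletion, 6103, 6505 and 6619 in the Rvb1-tagged TAH1 deletion, 3836, 3874 and 3852 in the Rvb2-tagged PIH1 deletion and 5240, 5419 and 5573 in the Rvb2-tagged TAH1 deletion. The groups did not overlap, and the pooled log2 change was −0.93 ± 0.10 (SE, limma adjusted p = 1.31e-05).

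HXK1, the hexokinase induced when glucose runs low, had 5253, 1527 and 5104 in the Rvb1-tagged and 5289, 6968 and 7039 in the Rvb2-tagged wild type. It ran from 133 to 151 in the Rvb2-tagged PIH1 deletion and from 590 to 2685 in the other 9 deletion libraries. The low wild type value was that of the library that stood apart. The pooled log2 change was −2.55 ± 0.67 (SE, limma adjusted p = 0.00754).

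EMI2, a relative of glucokinase, changed by −1.96, with 498 in that wild type library, 1341 to 1620 in the other 5 and 114 to 739 in the deletions. GLK1, glucokinase, changed by −1.55, and the glyceraldehyde phosphate dehydrogenases TDH1 and TDH2 by −2.25 and −1.36. Falls were smaller for PGK1 (−0.85), ADH1, the main alcohol dehydrogenase (−0.61), ENO2 (−0.44) and PDC1, pyruvate decarboxylase (−0.33). Among hexose transporters and glucose sensors 3 of 13 rose, with HXT1, the low-affinity transporter, at 0.80, and 0 fell by limma, with 0 at an unadjusted p under 0.05. The 3 rises are near the 20.3% of all genes, and they numbered 1 without Rvb1-tagged wild type replicate 3.

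General stress genes, targets of Msn2 and Msn4, were mixed: 9 of 28 fell, against 16.5% of all genes, 8 of them shared, and 1 rose. The falls numbered 3 without Rvb2-tagged wild type replicate 3 and 12 without Rvb1-tagged wild type replicate 2. TMA10, a stress-induced protein found with ribosomes, had 187, 47 and 136 and 170, 179 and 165 in the wild types, where the lowest was the library that stood apart, and 14 to 55 in the deletions (−2.26 ± 0.32, limma adjusted p = 0.000197). The single rise was HSP12, a membrane-stabilising small heat shock protein. It had 366, 163 and 303 (Rvb1-tagged) and 430, 632 and 473 (Rvb2-tagged) in the wild types, and 1745, 3981 and 3142, 4419, 570 and 1542, 929, 964 and 1015, and 1767, 1938 and 1909 in the Rvb1-tagged PIH1, Rvb1-tagged TAH1, Rvb2-tagged PIH1 and Rvb2-tagged TAH1 deletions. The groups overlapped at 1 library, and replicates of the Rvb1-tagged deletions were wide apart. The pooled log2 change was 2.20 ± 0.39 (SE, limma adjusted p = 0.000897). The median of the stress list was −1.93 in the Rvb2-tagged PIH1 deletion and −0.35 to 0.02 in the other 3.

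**Figure D4:**
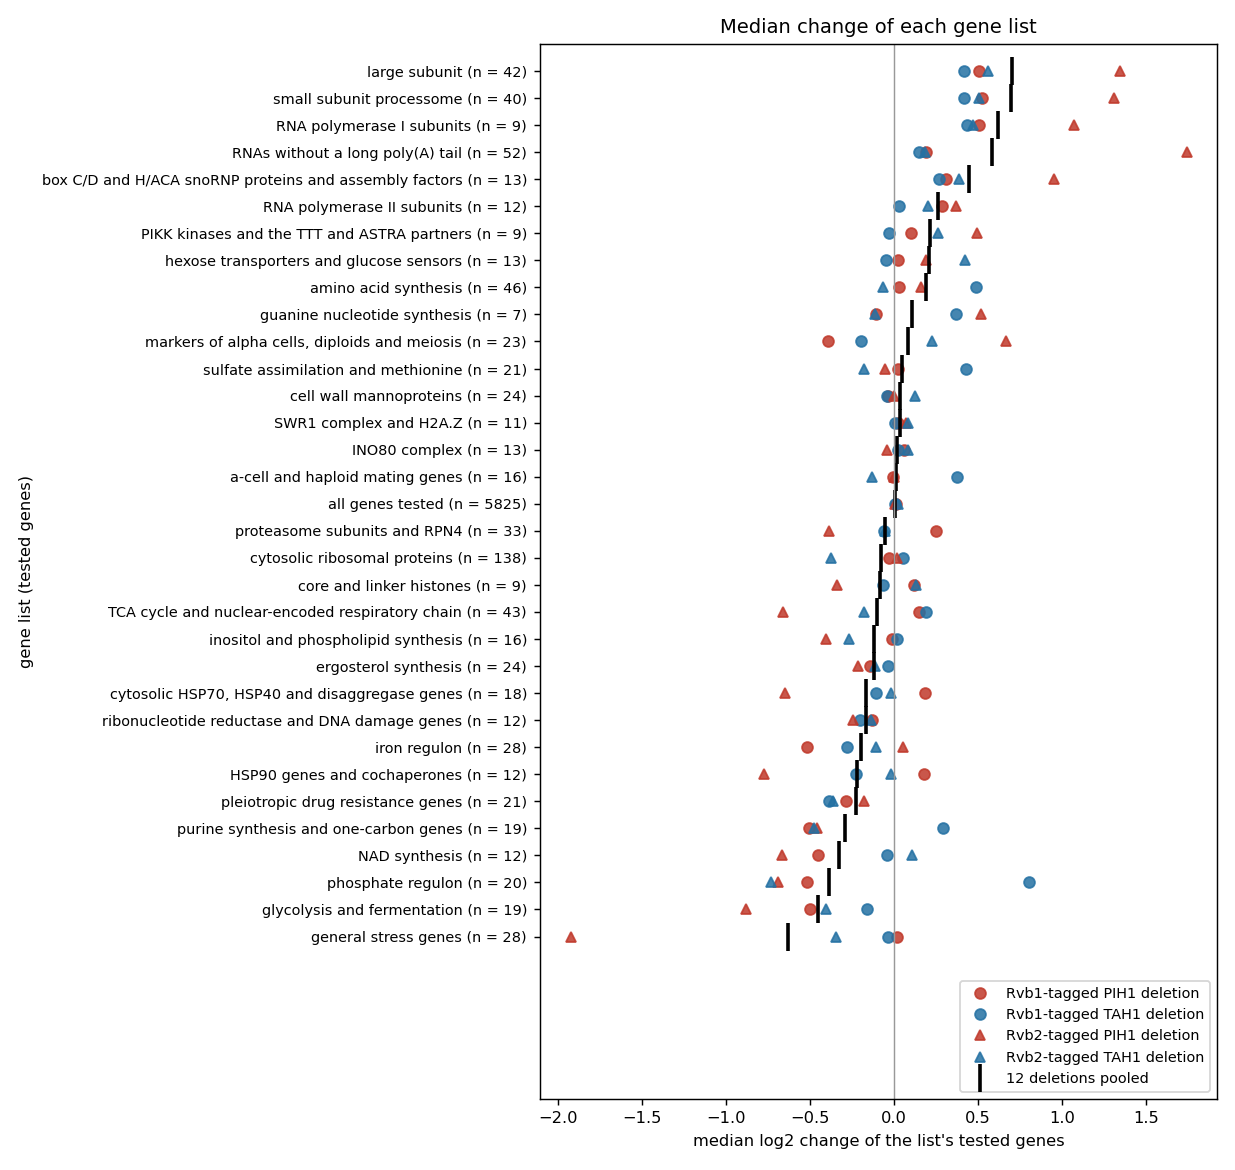
Median log2 change of each gene list with at least 5 tested genes in the 4 deletions (circles, tagged Rvb1; triangles, tagged Rvb2; red, PIH1 deletion; blue, TAH1 deletion) and in the pooled fit (black bars). The small subunit, large subunit and RNA polymerase I lists lie above 0.4 in all 4 deletions, and the glycolysis list lies below 0 in all 4, from −0.88 to −0.16.

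RGS2, which lowers cAMP signalling by glucose, rose in every deletion library. It had 117, 184 and 124 in the Rvb1-tagged and 129, 104 and 111 in the Rvb2-tagged wild type. The deletions had 333, 299 and 338 (Rvb1-tagged PIH1), 304, 310 and 256 (Rvb1-tagged TAH1), 354, 309 and 305 (Rvb2-tagged PIH1) and 358, 343 and 312 (Rvb2-tagged TAH1). No deletion library overlapped a wild type, and the 4 deletions lay close together. RGS2 changed by 1.33 ± 0.10 (SE, limma adjusted p = 2.23e-07).

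YHR033W, of unknown function, lies next to PIH1 on chromosome VIII. It ran from 131 to 201 in the wild types, from 270 to 424 in the PIH1 deletions and from 209 to 339 in the TAH1 deletions, where its neighbour is intact. The pooled log2 change was 1.02 ± 0.12 (limma adjusted p = 1.87e-05), and it was larger without PIH1 by 0.34. TVS1, which lies beside TAH1, was a shared fall (−0.54). PRM3, a pheromone-regulated protein of nuclear fusion on chromosome XVI, ran from 37 to 60 and from 65 to 141 (0.96 ± 0.10, limma adjusted p = 9.68e-06).

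AAH1, adenine deaminase, changed by 1.04, CPA1, a subunit of the carbamoyl phosphate synthetase for arginine, by 1.02, and YMC2, a mitochondrial carrier, by 0.96. The wild types reached 1595 for AAH1 and 1411 for CPA1, both in Rvb1-tagged replicate 2, and the deletions began at 896 and 796. These 3 genes had overlapping groups.

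MDH2, the cytosolic malate dehydrogenase used to make glucose, fell in every deletion library. It had 1202, 1265 and 1157 and 1381, 1272 and 1287 in the wild types. It had 274, 450 and 488 and 593, 393 and 695 in the Rvb1-tagged PIH1 and TAH1 deletions, and 129, 129 and 154 and 117, 157 and 152 in the Rvb2-tagged ones. The groups did not overlap, and the fall was larger with tagged Rvb2. The pooled log2 change was −2.31 ± 0.26 (SE, limma adjusted p = 1.64e-05).

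URA1, the dihydroorotate dehydrogenase of pyrimidine synthesis, ran from 4141 to 5801 in the wild types and from 715 to 3147 in the deletions (−1.71 ± 0.18, limma adjusted p = 9.72e-06). RIB4, the lumazine synthase of riboflavin synthesis, ran from 1800 to 2789 and from 561 to 1141 (−1.42 ± 0.13, limma adjusted p = 1.64e-06). Neither overlapped.

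HUG1, an inhibitor of ribonucleotide reductase that is induced by DNA damage, ran from 39 to 78 in the wild types and from 10 to 33 in the deletions (−1.53 ± 0.22, limma adjusted p = 0.000197). Of 12 ribonucleotide reductase and DNA damage genes 6 fell and 1 rose, against 16.5% and 20.3% of all genes. RNR3, the damage-induced large subunit, changed by −0.97, and MAG1, a DNA glycosylase, by −0.80.

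COA4, an assembly factor of cytochrome c oxidase, changed by −1.44 and YFR052C-A, for which the annotation used here gave no match, by −1.82. Without a match, reads that YFR052C-A might share with another gene were not looked for. COA4 and YFR052C-A both had overlapping groups. The lowest wild type values, 101 and 62, were those of Rvb1-tagged replicate 2, and the highest deletion values were 125 and 112.

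Genes of complexes that R2TP or its ATPases serve moved by less than 1 on the log2 scale. Of 12 RNA polymerase II subunits 8 rose, against 20.3% of all genes, by 0.19 to 0.61. The largest change was that of RPO26, a subunit shared by all 3 nuclear polymerases whose gene lies on chromosome XVI. Of 9 genes of PIKK kinases and their partners 3 rose: TRA1, the kinase-dead scaffold of histone acetyltransferases (0.74 ± 0.12, limma adjusted p = 0.000588), ASA1 (0.57, on chromosome XVI) and TOR1 (0.21). TRA1 had 418 to 730 normalized counts in the wild types and 688 to 1149 in the deletions.

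Over all genes 20.3% rose and 16.5% fell, which are the shares to set beside the next counts. Of 13 INO80 genes 2 rose, NHP10 (0.27) and IES3 (0.16). Of 11 SWR1 genes 3 rose and 2 fell, from −0.24 for HTZ1, the histone variant the complex deposits, to 0.31 for VPS72. Of 12 HSP90 genes and cochaperones 2 rose, CNS1 (0.46) and PPT1 (0.35), and 3 fell, STI1 (−0.76), CDC37 (−0.39) and SBA1 (−0.31). Of 18 cytosolic HSP70, HSP40 and disaggregase genes 1 rose and 2 fell, SSE2 by 1.03 and SSA4 by 0.71. The HSP90 rises lost their calls without Rvb2-tagged wild type replicate 3, as did the SWR1 falls without Rvb1-tagged wild type replicate 1, and the HSP70 falls numbered 4 without Rvb1-tagged wild type replicate 2. The median of the HSP90 list was −0.77 in the Rvb2-tagged PIH1 deletion and 0.18 in the Rvb1-tagged one.

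Cytosolic ribosomal protein genes gave few calls. Of 138 tested, 3 rose and 11 fell, against 20.3% and 16.5% of all genes, with a median of −0.08. The list was drawn by symbol, so it took in RPP1 (0.32), a protein of RNase P and not of the ribosome. RPP1 was 1 of the 3 rises, and the others, RPL5 (0.39) and RPL33A (0.35), lie on chromosome XVI. The falls numbered 6 without Rvb2-tagged wild type replicate 1, and the rises numbered 6 without Rvb1-tagged TAH1 deletion replicate 1. Many of the 138 are near-identical pairs between which reads can be split. RPL8A changed by −1.66, RPL9B by −1.12 and RPL22B by −0.80. In the pooled limma fit 0 of 33 proteasome genes and 0 of 9 histone genes passed, and 1 and 0 had an unadjusted p under 0.05. These lists did not move one way in the deletions. The proteasome median was 0.25 in the Rvb1-tagged and −0.39 in the Rvb2-tagged PIH1 deletion, and −0.06 and −0.05 in the TAH1 deletions. The histone median was 0.12, −0.34, −0.07 and 0.13 in that order.

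For the lists that follow, the shares over all genes are again 20.3% higher and 16.5% lower. Of 46 amino acid synthesis genes 13 rose and 2 fell, with CPA1 the largest rise. Of 24 ergosterol genes 3 rose and 7 fell, ERG28 by 0.76. Of 16 phospholipid genes 1 rose and 7 fell, including the phosphatidylcholine enzymes OPI3 (−1.10) and CHO2 (−0.68). Of 43 genes of the TCA cycle and respiratory chain 2 rose and 7 fell, 4 of them shared. Of 24 cell wall mannoprotein genes 4 rose and 5 fell, with TIR1 at −1.81 and TIR2 at 0.77. Of 19 purine genes 1 rose and 3 fell, and of 7 genes listed for guanine nucleotides 2 rose and 1 fell. Those 2 rises were GUA1 (0.60) and FUR4 (0.59), and FUR4 is a uracil permease, not a guanine synthesis gene. Of 12 NAD genes 2 rose and 3 fell, and of 21 sulfate and methionine genes 1 rose and 1 fell. Of 16 mating genes of a cells 6 rose and 2 fell, and of 23 markers of alpha cells, diploids and meiosis 1 rose and 4 fell.

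Many of these counts rest on single libraries. The amino acid rises numbered 6 without Rvb1-tagged wild type replicate 1 and 18 without replicate 2 of that group. The TCA cycle and respiratory chain falls numbered 2 without Rvb2-tagged wild type replicate 1 and 16 without Rvb1-tagged wild type replicate 2. Purine falls numbered 1 without Rvb1-tagged PIH1 deletion replicate 1 and 11 without Rvb1-tagged TAH1 deletion replicate 2. Cell wall falls numbered 3 and NAD falls 1 without Rvb2-tagged wild type replicate 1, and the falls of a-cell mating genes numbered 4 without Rvb1-tagged TAH1 deletion replicate 1. Several of the smaller counts moved too.

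Some genes responded in every deletion but not in 1 direction. Called singly in each of the 4 deletions with mixed signs were 66 genes (1.13%). The 5 with the largest smallest change were all phosphate-responsive: PHO84, SPL2, VTC3, PHO12 and PHM6, of which VTC3 is on chromosome XVI. Each was higher in the Rvb1-tagged TAH1 deletion and lower in the other 3 deletions.

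PHO84, the high-affinity phosphate transporter, had 5362, 8133 and 5394 and 6169, 5596 and 6003 normalized counts in the wild types. It had 17720, 16614 and 16497 in the Rvb1-tagged TAH1 deletion, 2273, 2422 and 2340 in the Rvb1-tagged PIH1 deletion, 410, 459 and 428 in the Rvb2-tagged PIH1 deletion and 318, 325 and 312 in the Rvb2-tagged TAH1 deletion. The 4 log2 changes were 1.46, −1.40, −3.77 and −4.21 in that order, each with a standard error of 0.11. The pooled value of −1.98 (limma adjusted p = 0.0217) describes none of them. SPL2, an inhibitor of low-affinity phosphate uptake, changed by 1.26 in the Rvb1-tagged TAH1 deletion and by −1.05, −3.29 and −4.74 in the others, in the same order. Of the 20 phosphate genes 1 rose and 5 fell in the pooled fit, and only 1 rise and 1 fall were shared. Over all genes 20.3% rose and 16.5% fell, with 18.3% shared rises and 14.0% shared falls. The falls numbered 1 without Rvb2-tagged wild type replicate 1.

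The size of the deletion effect differed often between tags and between deletions. The mean effect differed between the tags for 2216 genes (38.0%) and between PIH1 and TAH1 for 3139 (53.9%). Among the 1882 shared genes, 804 differed between the tags, 1272 between the deletions and 449 in neither. The smallest of the 4 changes lay in the Rvb1-tagged TAH1 deletion for 597 of the 1065 shared rises and 506 of the 817 shared falls.

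Genes nearest to the threshold had small changes. Just inside it were MSG5 (0.24), CKB1 (0.12), UBP10 (0.31), YKR041W (0.54) and CLB1 (−0.52), with limma adjusted p-values of 0.0498 to 0.0499. Just outside were CNB1 (−0.21), ATP18 (−0.25), MSL1 (0.31), SWT21 (0.25) and RPL22A (0.46), with 0.0501 to 0.0504.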

How the data were processed

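Poly(A)+ RNA of 18 libraries in 6 groups was measured. The deposited signal is a table of gene read counts that the authors scaled library by library, by factors that are not given, and rounded. The deposited score is the authors' FPKM table, rounded to whole numbers and used only as an alternative. The sacCer3 build, DESeq2 1.6.3 and TopHat2 2.0.3 are named in the submitters' processing notes. Annotation, counting tool and strand setting were not given in the sources used here, so overlapping genes could share reads.

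Log2(normalized count + 1) was fitted with limma 3.58.1 in R 4.3.3 (trend, two-sided, 15 residual degrees of freedom) with the tag and the deletion as terms, and adjusted by Benjamini-Hochberg over 5825 genes at 0.05. Single deletions, and differences between tags and between deletions, came from a fit of 6 group means. Replicates are biological per the labels; p-values reflect only how these libraries spread. The fit was tested on simulated data with a common deletion effect and no differences between deletion strains. It was therefore not tested for genes whose effect differs between strains. Reads without molecular identifiers and unknown library factors allow no interval per count.

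Identifiers were matched to RefSeq R64, 6048 by locus tag and 114 by symbol; 964 had none, 198 of them tested. Promoters are 600 bases before the start codon, a window chosen after the table had been seen. The members, gene lists and rules were chosen with earlier results of these data known, and the lists for cytochrome c oxidase assembly, pyrimidines and riboflavin after values of this fit were seen. Named genes are the 15 rises and 15 falls with the largest smallest change over the 4 deletions, R2TP genes and neighbours of the deleted genes, up to 4 per list with the smallest p, the 5 leading mixed-sign genes and the 5 nearest the threshold on each side; further members of a list are named with their pooled change. Not every gene that this rule names is described here. Alternatives were other pseudocounts, filters, scalings, weights, blocks, subsets of groups and each library left out. With tagged Rvb1 alone, leaving out wild type replicate 2 was added after seeing the data.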

Additional observations from a re-analysis of the deposited data

Results flagged for a closer look

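Among the 30 shared genes named above, 13 had 1 wild type library far from the other 5, by Dixon's gap over range at the 95% level; chance flags about 1 in 20 groups. In 12 of the 13 it was Rvb1-tagged replicate 2. This library was high for AAH1 (1595 normalized counts), DBP2 (6188), PXR1 (1774), TOD6 (849), SYO1 (734), CPA1 (1411), PUS1 (1202), HAS1 (1755) and URA1 (5801), and low for TMA10 (47), EMI2 (498) and HXK1 (1527). In the other case Rvb2-tagged wild type replicate 1 was high for RIB4 (2789).

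In 16 of the 30 genes the mean deletion effect differed between the tags by the limma test of the difference itself. Over all genes tested the share was 38.0%. The difference, tagged Rvb2 minus tagged Rvb1 on the log2 scale, was 1.96 for snR17a, 2.03 for snR17b, 1.03 for TOD6 and 0.61 for PUS1, whose rises were larger with tagged Rvb2. It was −1.58 for HSP12, whose rise was larger with tagged Rvb1. Falls were larger with tagged Rvb2 for EMI2 (−1.03), HXK1 (−1.89), MDH2 (−1.85), URA1 (−0.88), RIB4 (−0.90) and YFR052C-A (−1.30). They were smaller with tagged Rvb2 for PDR5 (0.29), FIT2 (0.71), PDR15 (0.63), FIT3 (1.01) and TIS11 (0.66).

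In 18 of the 30 the effect differed between PIH1 and TAH1, given as the mean effect without PIH1 minus that without TAH1. Over all genes tested 53.9% differed, a share near that of the 30. Rises were larger without PIH1 for snR17a (1.6), AAH1 (0.42), DBP2 (0.67), snR17b (0.65), PXR1 (0.51), TOD6 (0.90), YHR033W (0.34), SYO1 (0.76), CPA1 (0.43) and HAS1 (0.44), and smaller for PUS1 (−0.29). Falls were larger without PIH1 for CIS1 (−0.56), PDR5 (−0.19), EMI2 (−1.38), HXK1 (−2.43), TIS11 (−0.88), COA4 (−1.09) and YFR052C-A (−1.48).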

How the results depend on the processing

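The 30 shared genes named above kept their direction in all alternatives that held them. They had been chosen for large changes of the same sign in every deletion, and the alternatives reuse the same libraries. The kept direction was therefore largely set by that choice and is not separate evidence for it. All 30 lost the call with the 6 group means as observations, which made 0 calls of any kind; 12 lost it with only the Rvb1-tagged libraries and 0 once wild type replicate 2 was also left out. With only the Rvb1-tagged libraries 40 genes rose and 96 fell, the same numbers moved one way in both deletions, 44 rises were called singly in both, and 1205 genes differed between PIH1 and TAH1. Without that wild type library too, 712 rose and 520 fell, 780 rises and 567 falls were called singly, and 2090 differed between the deletions. In those 2 subsets the direction turned for RVB1 (−0.76 and −0.72), RVB2 (0.11 and 0.14), PHO84 (0.030 and 0.23) and SPL2 (0.11 and 0.18), in the first for IDH1 (0.0002) and MSG5 (−0.023), and in the second for LYS9 (0.0024).

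With 6 group means 1895 rose and 1708 fell. Rises and falls called singly numbered 473 and 268 with library weights, 1065 and 984 with only the Rvb2-tagged libraries, 580 and 623 with only the PIH1 deletions, 451 and 457 without the Rvb1-tagged TAH1 deletion, and 54 rises with quantile normalization, 52 with only the TAH1 deletions and 45 without the Rvb2-tagged PIH1 deletion. With only the PIH1 deletions 1515 genes fell (1439 shared), and with only the TAH1 deletions 606 fell. Genes that differed between the tags numbered 1165 with only the TAH1 deletions and 1179 without the Rvb2-tagged PIH1 deletion. Without the genes of chromosome XVI 1065 rose and 986 fell.

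With 1 library left out, rises ran from 857 (without Rvb2-tagged wild type replicate 2) to 1341 (without Rvb1-tagged wild type replicate 2), falls from 653 to 1184, shared rises from 817 to 1220 and shared falls from 597 to 1015, with the same libraries at the ends. Rises called singly ran from 22 (without Rvb1-tagged wild type replicate 1) to 509 and falls from 51 to 311 (both highest without replicate 2); differences between tags ran from 1907 to 2290 and between deletions from 2844 to 3410.

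With the replicate number as a block, 1042 genes rose and 825 fell, and 60 rises and 83 falls were called singly. The numbers did not pair the libraries: over 45 pairs with the same number, deviations from group means had a median correlation of 0.0019, and 8 pairs were over 0.1. Low counts such as those of snR17a and CIS1 limit the precision of their changes.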

Other observations

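COA4 led to a further look at 25 genes for the assembly of cytochrome c oxidase, the last enzyme of the respiratory chain, a list written after values of these data were seen and therefore without weight as a test. Of the 25 genes 17 fell, all of them shared and 7 with no overlap between the 12 deletion and 6 wild type libraries, and 2 rose. Over all genes 16.5% fell, 2.66% fell without overlap and 20.3% rose. The median pooled log2 change was −0.56, with −0.53, −0.25, −1.10 and −0.50 in the Rvb1-tagged PIH1, Rvb1-tagged TAH1, Rvb2-tagged PIH1 and Rvb2-tagged TAH1 deletions. PET117 changed by −1.56, COX23 by −1.18, COX17, a copper chaperone of the enzyme, by −1.05, COA3 by −0.98 and SCO1, another copper protein of its assembly, by −0.85. COX19 and COA2 rose, by 0.52 and 0.46, and COA2 lies on chromosome XVI. The summed level was 5302 to 7307 normalized counts in the wild types, where the lowest value was that of Rvb1-tagged replicate 2, and 3316 to 5508 in the deletions. With only the Rvb1-tagged libraries 3 of the 25 fell, and 13 when that wild type library was left out as well. Over all 5825 genes 96 and 520 fell in those settings.

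Pyrimidine genes, also listed after values were seen, went both ways. Of 10 genes 4 fell and 2 rose, against 16.5% and 20.3% of all genes. URA4, dihydroorotase, changed by −1.16 (limma adjusted p = 2.92e-06) beside URA1, while URA7, a CTP synthase, changed by 0.77. Of 6 riboflavin genes RIB4 fell and RIB7 rose (0.44).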
